A study of Homo sapiens with 11 samples.

Results

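Intestinal epithelium genes are a list of 44 genes of the intestinal lineage, the crypt stem cell, the mucus-secreting cells and the absorptive cells. CTCF binding near them was read from CUT&RUN in a human colorectal cancer line, HCT116 p53-/-. In CUT&RUN an antibody guides a nuclease to the protein, and the short DNA fragments it cuts free are sequenced. The members were chosen by name. A summit, the single base of highest signal in a called peak, was counted for a gene when it lay inside the hg38 gene span or within 10 kb of it. All 44 genes were found in the RefSeq table, among 20037 protein-coding genes used. Their windows held 33 of 19044 summits of the WT list, 47 of 31112 of the ORC2 deletion list and 36 of 20810 of the rescue list.

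All cells lack p53. WT cells are the parental HCT116 p53-/- line. ORC2 deletion cells are 1 CRISPR/Cas9 clone of it that lacks ORC2, part of the complex that marks replication origins. Rescue cells were selected as clones after ORC2, with its untranslated regions, was put back from the vector pLHCX. A difference between clones and a difference due to ORC2 cannot be told apart here. CTCF antibody was used on 2 libraries of each genotype, and IgG, the antibody background, on 2 of WT, 2 of deletion and 1 of rescue. Each genotype has 1 deposited CTCF list that names no replicate, so no value below has a replicate check and no test was made. Library depth is unknown. The lists hold peaks, not RNA, so they do not show whether these genes were expressed.

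CTCF is a zinc finger protein that binds DNA at many sites and, with cohesin, bounds chromatin loops that bring genes and enhancers together or keep them apart. In the gut, CDX1, CDX2 and HNF4A are transcription factors that set intestinal identity, LGR5 and EPHB2 mark the crypt base, ATOH1 directs cells to the secretory fate, and villin, keratins and cadherin-17 build the epithelial cell. HCT116 is of colonic origin.

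The IgG lists held only 17 WT, 34 deletion and 33 rescue summits in all. No member window held an IgG summit of any genotype, and the nearest to a member site lay 197063 bp away, at CA2. With lists this short, their absence says little about background at these genes. A WT summit was found at 22 of the 44 members (50.0%; 95% Wilson interval 35.8 to 64.2), against 50.3% of all protein-coding genes. A deletion summit was found at 26 members (59.1%; 44.4 to 72.3), against 63.5% of all genes. A rescue summit was found at 23 (52.3%; 37.9 to 66.2), against 51.8%. These intervals cover counting error only, and each holds the share of all genes. Members had a median span of 21.3 kb, and all protein-coding genes 24.1 kb. Per Mb of window, members held 11.6 WT, 16.6 deletion and 12.7 rescue summits, against 10.0, 16.2 and 10.8 over all protein-coding genes.

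**Figure D1:**
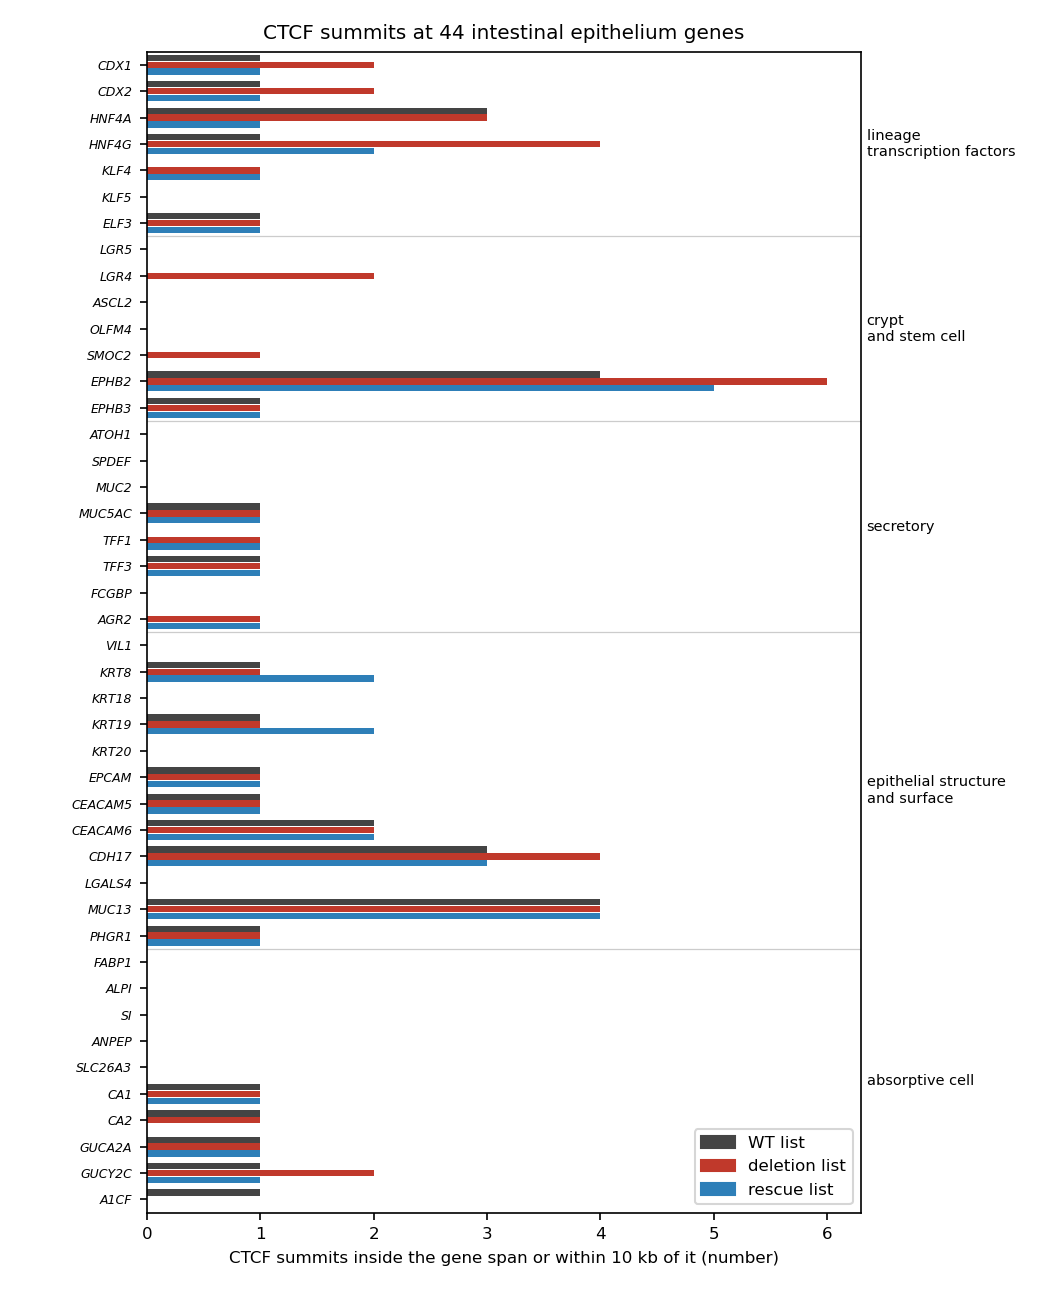
The horizontal axis gives the number of CTCF summits inside each gene span or within 10 kb of it, and each gene has 1 bar per list, grouped by role. EPHB2 has the longest deletion and rescue bars (6 and 5 summits), EPHB2 and MUC13 have 4 WT summits each, and 17 genes have no bar.

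Summits at 3 members fell within the promoter window of RefSeq (GRCh38.p14), 250 bases before to 50 after a gene start, and these stretches are shown. The table gave 32 promoters for 28 members, so promoter summits of the remaining members could not be looked up. The share of all promoters that hold a summit was not computed. In the following lines the capital letter is the summit base, read 5′ to 3′ on the strand of the gene.

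EPHB3, WT summit, chr3:184561538-184561567, plus strand: agcatcgctccgcccAatctaattcatctt
EPHB3, deletion summit, chr3:184561580-184561609, plus strand: gcccactccggccccTgagaccccgagggt
LGR4, deletion summit, chr11:27472814-27472843, minus strand: tttgcatgtacctaaGtgatttgcataagc
CDX2, deletion summit, chr13:27969266-27969283, minus strand: acgccagcctgtggcGgg

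The EPHB3 window held a WT and a deletion summit, and its rescue summit lay 435 bp before the start, outside the window. The LGR4 and CDX2 windows held a deletion summit alone. The CDX2 stretch is cut short by the end of the promoter window. CCCTC, the word CTCF is named for, was searched on both strands together with AGNNGGCNC, a loose form of the core of the CTCF motif. The longer word was found in none of these 3 promoters, in 6 of the 32 member promoters (18.8%) and in 25.5% of the 35116 promoters of the table. CCCTC was found in 23 of the 32 (71.9%) and in 71.2% of the table. The match nearest a summit is in capitals below, written GAGGG where it lies on the other strand.

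EPHB3, chr3:184561592-184561620, plus strand: ccctgagaccccGAGGGtgggcctggcgg
LGR4, chr11:27472926-27472954, minus strand: cgagaaacacgcCCCTCtggtcctcctct
CDX2, chr13:27969390-27969418, minus strand: aaattatgtttcGAGGGgttgtgcgtaga

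The centre of the match lay 11 bp from the deletion summit at EPHB3, 112 bp at LGR4 and 136 bp at CDX2. A match describes these letters and is not a mapped site.

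The strongest member sites stood at the surface genes CEACAM5 and CDH17, the lineage factor CDX1 and the crypt gene EPHB3, and all 3 lists held them. Summits at most 500 bp apart were taken as 1 site. Strength is given as the −log10 q of the summit, the peak caller's value in the authors' deposited list, and as its percentile within that list. Values are not scaled between lists, so a higher value in one list is not read as a change. CEACAM5, a carcinoembryonic antigen on the apical surface of colon cells, had a site about 1.7 kb before its start, at percentile 99.9 of each list (−log10 q 91.1 WT, 111 deletion, 115 rescue). Its summits stood at 41706925, 41706983 and 41706937 on chromosome 19. CDX1 had a site below the lower end of its span on chromosome 5, at 150161660 (WT, 83.8), 150161569 (deletion, 119) and 150161632 (rescue, 82.6). CDH17, the intestinal cadherin, had one below its span on chromosome 8, at 94120304 (WT, 36.3), 94120293 (deletion, 94.0) and 94120296 (rescue, 66.5). These 3 sites were at the 98.9th percentile or above in every list.

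EPHB3, a receptor tyrosine kinase that positions cells along the crypt, had a site at its promoter, at 184561553 (WT, 25.2), 184561595 (deletion, 31.1) and 184561350 (rescue, 20.5). These summits lay 232, 190 and 435 bp before the start. Another CDH17 site lay inside the gene, at 94206395, 94206380 and 94206349 (21.4, 23.8 and 18.2). By mean percentile over the lists these 5 sites ranked highest among sites that all 3 lists held. The site of CEACAM6, a relative of CEACAM5, followed at about 1.3 kb before its start, with 12.8, 32.0 and 18.9.

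Over all member summits the median percentile was 54.0 in WT, 58.8 in deletion and 63.3 in rescue. Summits above the 90th percentile numbered 5 of 33 in WT, 9 of 47 in deletion and 7 of 36 in rescue (15.2%, 19.1% and 19.4%, where a whole list has 10.0%). Sites held by all lists are counted in each. At the 85 other intestinal genes described below these shares were 11.8%, 14.4% and 16.7%. Their median percentiles, 63.0, 62.7 and 68.0, were above those of the members. The weakest member summits had −log10 q of 1.39 in WT, 2.25 in deletion and 2.14 in rescue. In percentiles, member summits ran from 2.09 to 99.9 in WT, 2.98 to 99.9 in deletion and 3.62 to 99.9 in rescue. Their highest values, 91.1, 119 and 115, were far below the highest of the lists, 728, 1461 and 1585.

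**Figure D2:**
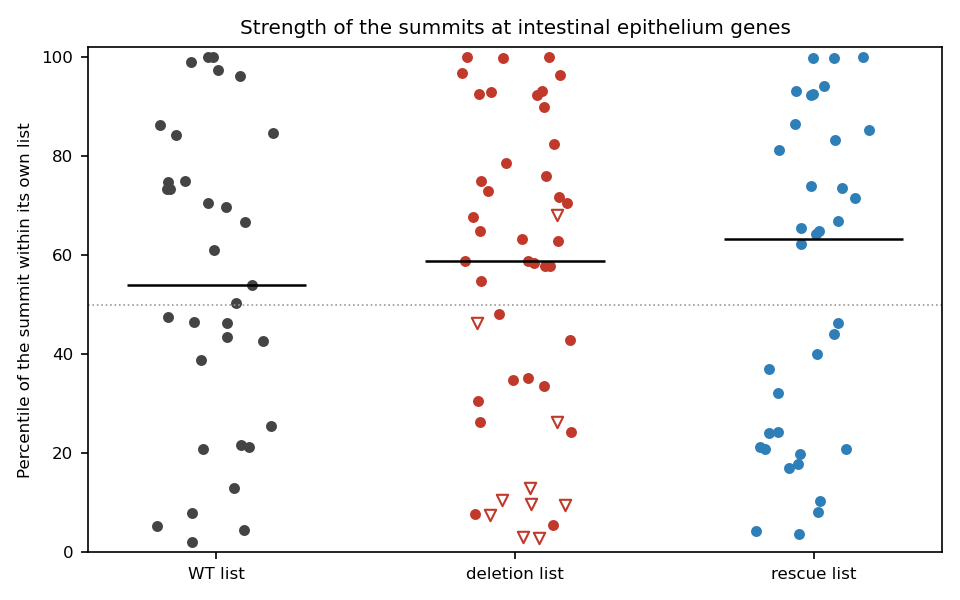
The vertical axis gives the percentile of each member summit within its own list, and the horizontal axis the list; open triangles are summits in the authors' up list and black lines are medians. Of the 10 open triangles, 9 lie below the dotted line at the 50th percentile, and the medians are 54.0, 58.8 and 63.3.

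To compare places rather than counts, summits up to 100 bp apart across the lists were merged into a site, which gave 65 member sites. Of these, 19 were in all 3 lists (29.2%; 19.6 to 41.2), against 20.0% of 43812 sites in all. Another 17 were in deletion only (26.2%; 17.0 to 38.0), against 32.8% of all sites. Summits of the same place often differed by more than 100 bp between lists. Joined within 500 bp there were 52 member sites, with 27 in all 3 lists (51.9%; 38.7 to 64.9) against 40.6% of all sites, and 10 in deletion only (19.2%; 10.8 to 31.9) against 27.3%. The share of all sites lies within the member interval in each of these 4 pairs. The summits of the 27 shared sites spread over 6 to 400 bp, with a median of 85 bp. The patterns below use 500 bp.

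**Figure D3:**
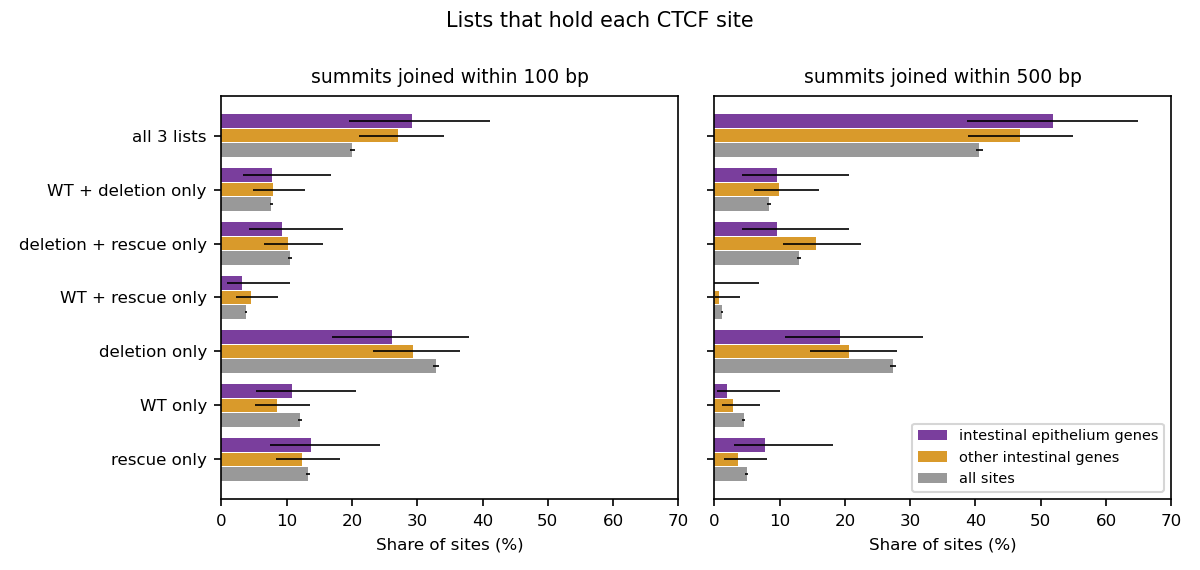
The horizontal axes give the share of sites in percent for each combination of lists, with 95% Wilson intervals, for the 44 intestinal epithelium genes, 85 other intestinal genes and all sites; summits were joined within 100 bp on the left and 500 bp on the right. Member sites in all 3 lists made up 29.2% on the left and 51.9% on the right, and the intervals of the members hold the values of all sites for this class and for deletion only.

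The authors' deposited up list, taken here to be regions with a deletion summit and none of WT or rescue, held 10 member sites. That is 15.4% of the 65 sites joined within 100 bp (8.58 to 26.1), against 21.9% of all sites. They belonged to 8 members (18.2%), against 30.4% of protein-coding genes with an up summit. Joined within 500 bp, the 10 up sites were the same sites as the 10 in deletion only. Those counts are therefore not separate observations. No member site was in the authors' deposited down list, which held 0.833% of all sites and touched 1.71% of protein-coding genes. How the down list was composed was not examined, and it does not cover every WT site that deletion lacks. Joined within 500 bp, 1 member site, at A1CF, was in WT only and not down (1.92%), against 4.49% of all sites in WT only. The nearest down summit to a member was 11712 bp outside PHGR1, at 40368146 on chromosome 15. Absence from WT and rescue was taken to be how the up list is composed, so it says nothing further about rescue at these genes. The rule was not strict at 500 bp, where 9594 of all sites were up and 9502 were in deletion only. For example, the up site of GFI1, among the other intestinal genes, had a rescue summit within that distance.

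Lineage transcription factors held 4 of the 10 up sites and crypt and stem cell genes another 4. That is 30.8% of the 13 sites of the former (12.7 to 57.6) and 40.0% of the 10 of the latter (16.8 to 68.7), against 27.6% of all sites joined within 500 bp, a share within both intervals. CDX1 had the strongest, inside the gene at 150175824 (−log10 q 11.7, percentile 68.0), 9046 bp from the lower end of its span. CDX2 had one at 27969268, which is 47 bp past its start site (3.49, percentile 13.1). HNF4G, a nuclear receptor of enterocytes, had a pair of weak ones, at 75407273 (2.25), 376 bp below its span, and at 75414844 (2.89) inside it.

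CDX1 and CDX2 thus had 2 deletion summits each where WT and rescue had 1, the added summit being the up site. The other CDX2 site lay inside the long noncoding RNA gene LINC00543 on chromosome 13, at 27954070 (WT, 5.83), 27953872 (deletion, 6.94) and 27953969 (rescue, 4.80). HNF4G had 1 WT, 4 deletion and 2 rescue summits. A site inside it was in all 3 lists, at 75483693, 75483692 and 75483674 (5.55, 12.7 and 2.90). A site outside it was in deletion at 75402094 (11.6) and rescue at 75402014 (8.41) but not in WT.

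HNF4A, the nuclear receptor that drives enterocyte genes, showed another pattern, with 3 WT, 3 deletion and 1 rescue summits in one stretch of the gene that the antisense HNF4A-AS1 also spans. A pair of neighbouring sites on chromosome 20 was in WT at 44386722 and 44388571 (5.11 and 5.92) and in deletion at 44386709 and 44388570 (9.65 and 5.39), and was not in the rescue list. The remaining site was at 44384778 (WT, 3.67), 44384378 (deletion, 7.78) and 44384412 (rescue, 14.3), so its summits were up to 400 bp apart. ELF3, an epithelial ETS factor, had 1 summit in each list about 1 kb before its start (8.85, 16.4 and 12.1). KLF4, a factor of differentiating colon cells, had a site on chromosome 9 in deletion at 107481322 (5.77) and rescue at 107481220 (2.67), and none in WT. KLF5, a factor of proliferating crypt cells, had none in its window, and its nearest summit was 15563 bp away in deletion, 245943 bp in WT and 245962 bp in rescue.

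Among crypt and stem cell genes, EPHB2 held most of the summits (4 of 5 in WT, 6 of 10 in deletion and 5 of 6 in rescue) and LGR5, ASCL2 and OLFM4 held none. EPHB2, the receptor tyrosine kinase partner of EPHB3 in the crypt, had 4 sites in all 3 lists, 1 in deletion and rescue and 1 up site at 22832392 on chromosome 1 (3.08). Of the shared sites inside it, 1 was at 22862358 (WT, 9.64), 22862454 (deletion, 24.2) and 22862390 (rescue, 18.3). The other was at 22889592 (6.60), 22889538 (21.1) and 22889563 (9.66). Outside the span, shared sites stood on both sides of the gene. The lower one was at 22704410 (WT, 9.34), 22704686 (deletion, 12.4) and 22704680 (rescue, 5.24), and the upper one at 22930598 (8.74), 22930604 (24.6) and 22930599 (13.7). The site without a WT summit was at 22709601 in deletion (4.89) and 22709426 in rescue (3.46), next to the lower end of the gene.

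LGR4, an R-spondin receptor that raises WNT signalling, had summits in the deletion list alone, and both were up sites. The stronger lay 38 bp before its start at 27472828 (3.07, percentile 9.62), inside the antisense gene LGR4-AS1, and the other inside the gene at 27390658 (2.25). SMOC2, a secreted protein of crypt stem cells, had a single summit, in deletion at 168530699 on chromosome 6 (3.16), an up site inside the gene. LGR5, the R-spondin receptor of crypt base stem cells, had its nearest summit between 23222 and 23425 bp away in the 3 lists. For ASCL2, the stem cell transcription factor, these distances were 34781 to 34858 bp, and for OLFM4, a secreted stem cell marker, 60395 to 60563 bp. Summits outside the windows of these 3 genes thus stood at nearly the same distance in every list.

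Of 8 secretory genes, 4 had a summit in any list (50.0%; 21.5 to 78.5), against 66.9% of all protein-coding genes. None had an up site (upper bound 32.4%), against 30.4%, so both shares of all genes lie within the intervals. TFF3, a trefoil peptide of goblet cells, had a site in each list (6.20, 13.6 and 10.2 in WT, deletion and rescue). MUC5AC, a gel-forming mucin, had one beyond its upper end (2.22, 9.43 and 3.83). TFF1, another trefoil peptide, and AGR2, a disulfide isomerase needed for mucin folding, each had a site in deletion and rescue and none in WT. At TFF1 the summits were 3 bp apart, at 42360481 and 42360484 on chromosome 21 (10.5 and 3.81). At AGR2 they were 311 bp apart, at 16801374 and 16801063 on chromosome 7 (5.87 and 5.96). ATOH1, SPDEF, the goblet cell factor, MUC2, the main mucin of the colon, and FCGBP, a mucus protein, had no summit. SPDEF was 10279 to 10338 bp from its nearest summit in the 3 lists, just outside its window. MUC2 was 92599 to 92800 bp from its nearest summit in the 3 lists, and FCGBP 19037 bp in WT, 19005 bp in deletion and 36011 bp in rescue.

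Epithelial structure and surface genes held 14 WT, 15 deletion and 16 rescue summits, and 7 of their 8 genes with a summit had equal numbers in WT and deletion (87.5%; 52.9 to 97.8). The share was 55.6% over all members (37.3 to 72.4) and 36.3% over all protein-coding genes. With the 19044 highest-scoring summits of each list, deletion had fewer summits than WT at 3 of the 8, MUC13, KRT8 and KRT19. At that length it had fewer at 26.4% of all protein-coding genes with a summit in either list. MUC13, a transmembrane mucin, had 4 sites, all of them in the 3 lists, and the site past its far end, 33207 bp from its start in WT, stood at percentiles 84.3, 92.4 and 66.9 of the WT, deletion and rescue lists. EPCAM, the epithelial adhesion molecule, had a site 1348 bp beyond its upper end (7.42, 9.58 and 8.51). PHGR1, a small protein of the gut epithelium, had a site with 5.48, 9.65 and 10.1. The one up site of the group was at CDH17, 2636 bp beyond its upper end at 94219914 (7.45, percentile 46.2). CDH17 also had a site inside the gene in WT at 94184022 (2.92) and deletion at 94183855 (5.95) that the rescue list lacked.

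KRT8 and KRT19 had sites that the rescue list alone held, while KRT18 and KRT20 had no summit. KRT8, a simple-epithelium keratin, had a site on chromosome 12 in WT at 52927678 (2.30) and deletion at 52927548 (2.91), which the rescue list lacked, and a pair of summits in rescue alone, at 52905249 (2.24) and 52925277 (5.54). KRT19, another simple-epithelium keratin, had a site on chromosome 17 in all lists, at 41521860, 41521922 and 41521913 (5.79, 4.69 and 3.72), and a summit in rescue alone at 41530648 (2.14). CDH17 also had one in rescue alone, at 94139474 (4.10). These were the 4 rescue-only sites of the members (7.69%; 3.03 to 18.2), against 5.00% of all sites, and they stood between percentiles 3.62 and 40.0 of the rescue list. VIL1, the microvillus protein villin, and LGALS4, a galectin, had no summit either. VIL1 was 12456 to 12800 bp from its nearest summit in the 3 lists. KRT18 is the partner of KRT8, and KRT20 a keratin of differentiated enterocytes. KRT20 was 47585 bp from its nearest deletion summit, against 72094 bp in WT and 72024 bp in rescue.

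**Figure D4:**
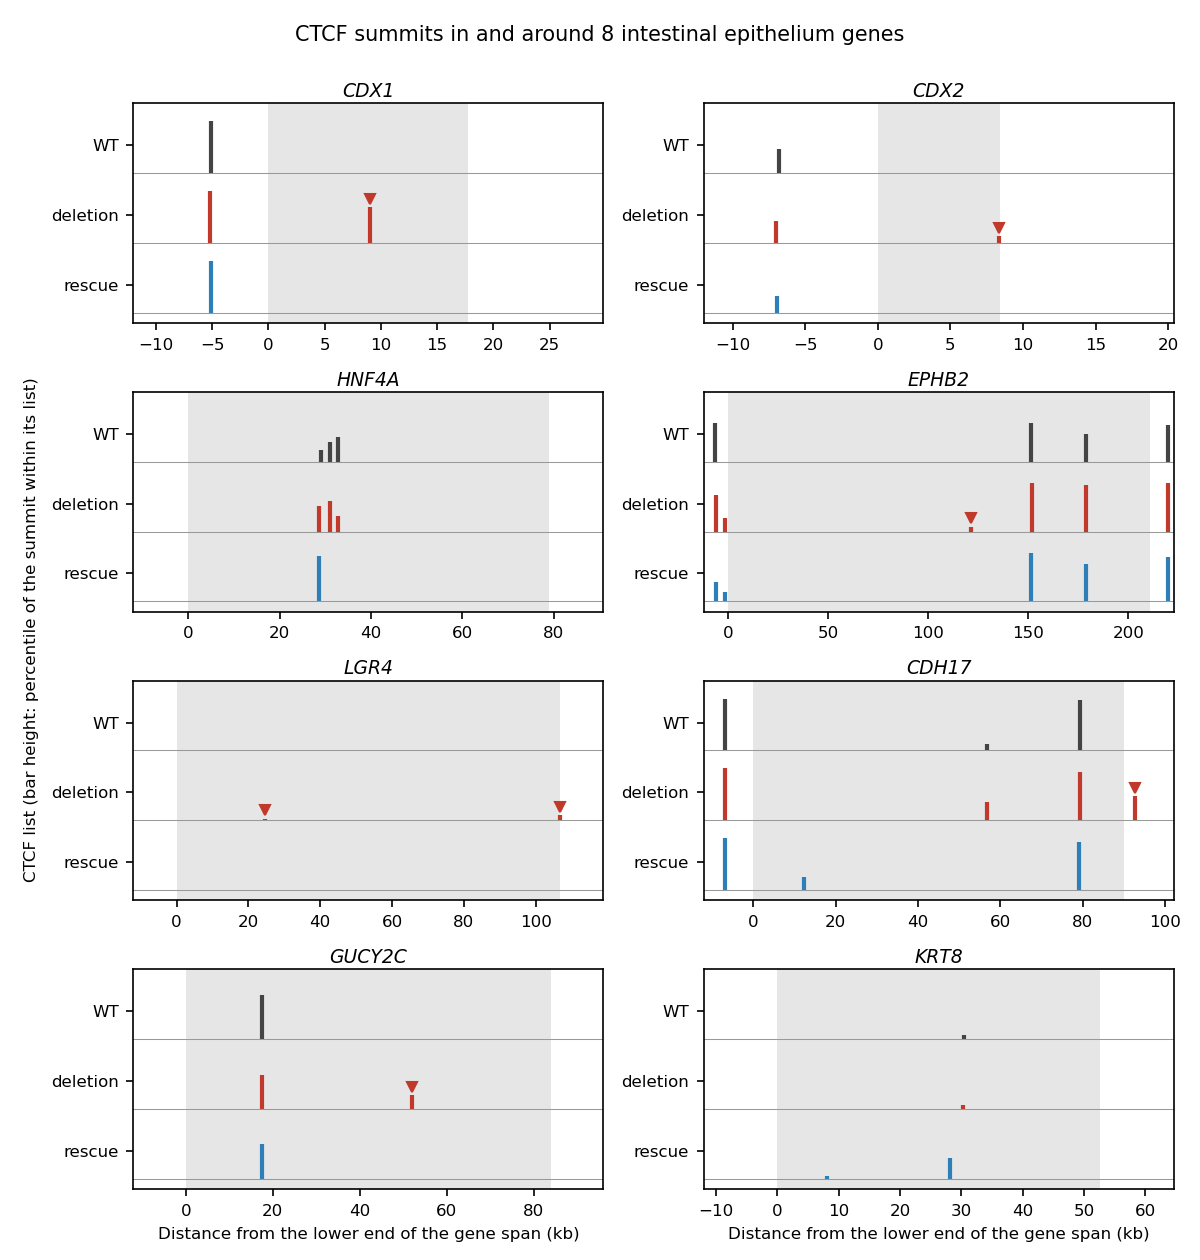
Each panel plots the summits of 1 gene against the distance from the lower end of its span (kb, shaded span), with a row per list; bar height is the percentile within the list and triangles mark summits in the authors' up list. CDX1 has a tall bar in all rows at about 5 kb below the span and a marked one inside it in deletion, and LGR4 has bars in the deletion row alone.

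Absorptive cell genes held 5 WT, 5 deletion and 3 rescue summits over 5 of 10 genes (50.0%; 23.7 to 76.3), and the 66.9% of all protein-coding genes lies within that interval. GUCY2C, the guanylin receptor, had a site inside the gene on chromosome 12 in all lists, at 14630119 (WT, 12.2), 14630159 (deletion, 10.9) and 14630204 (rescue, 8.65). It also had an up site at 14664604 (4.87), inside the gene too. GUCA2A, which encodes guanylin, had a site in all lists at 8934, 8867 and 8950 bp before its start (9.62, 8.85 and 6.18). CA1, a carbonic anhydrase, had one inside the gene (8.21, 13.0 and 4.12). CA2, another carbonic anhydrase, had one below its span in WT at 85463160 (4.03) and deletion at 85463195 (10.5), inside the antisense gene CA3-AS1, and none in rescue. A1CF, the cofactor of apolipoprotein B mRNA editing, was the one member with a summit in WT alone, at 50849983 on chromosome 10 (1.39, percentile 2.09). FABP1, a fatty acid binding protein, ALPI, intestinal alkaline phosphatase, SI, sucrase-isomaltase, ANPEP, an aminopeptidase, and SLC26A3, the chloride anion exchanger, had none. The nearest summit was 11530 to 11583 bp from ANPEP in the 3 lists and 11421 to 11581 bp from ALPI, just outside their windows.

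Deletion had more summits than WT at 11 of 27 members with a summit in either (40.7%; 24.5 to 59.3), against 57.2% of protein-coding genes. It had fewer at 1, A1CF (3.70%), against 6.50%. Rescue had more than WT at 7 of 25 (28.0%), against 31.0%. The deletion list is 1.63 times as long as the WT list, and at members the ratio was 1.42. With the 19044 highest-scoring summits of each list, members held 33 WT, 31 deletion and 33 rescue summits. Deletion then had more than WT at 3 of 23 members, CDX1, HNF4G and TFF1, against 24.2% of all genes, and fewer at 5 (21.7%), against 26.4%.

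The up sites of members were mostly weak, like those of the whole up list. The median member up site had a −log10 q of 3.12, the median of the remaining 37 member deletion summits was 10.9, and 9 of 10 up sites lay below the 50th percentile of the deletion list. Of the whole up list, 88.4% lay there. Of the 10 member up sites, those of CDX1 and CDH17 were among the 19044 highest-scoring deletion summits, as were 22.6% of the whole up list. Members with an up site had a median span of 98.5 kb and the other members with a summit 17.5 kb. Over all protein-coding genes these medians were 45.2 kb with an up summit and 26.5 kb with a summit and none up. The part of span in the count of up genes was not tested.

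A further list of 85 genes of the same lineage held 85 WT, 132 deletion and 96 rescue summits. Deletion had more than WT at 33 of the 64 with a summit in either (51.6%), against 57.2% of protein-coding genes. Up sites numbered 30, at 23 genes (27.1%), against 30.4% of protein-coding genes with an up summit. Down sites numbered 0, against 1.71% of protein-coding genes with a down summit. The up site with the highest value lay near CREB3L1, a transcription factor held in the endoplasmic reticulum membrane (13.6), followed by PROM1, a crypt surface protein (12.4), POU2F3, the tuft cell factor (10.6), and TRPM5, a tuft cell channel (9.82). Next came RNF43 (7.30), LCT, the lactase gene (7.27), ZNRF3 (7.11) and GATA6, a gut transcription factor (6.08). RNF43 and ZNRF3 are ubiquitin ligases that remove WNT receptors. Both had 2 up sites, as did CREB3L1, POU2F3, LCT, USH1C and GATA6. USH1C, a scaffold of the brush border (5.74), ESPN, an actin bundler (5.57), SLC26A2, a sulfate transporter (5.51), and MUC5B, a mucin (4.15), followed. The up sites of GATA6 were its only summits in the deletion list, 413 and 976 bp before its start (6.08 and 3.43), and it had none in WT or rescue. Of the 23 genes, 4 had no WT summit: GATA6, GFI1, CLDN4 and CDA. The share of all protein-coding genes with an up summit that lack a WT summit was not computed, so this count has no background.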

How the data were processed

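CTCF and IgG CUT&RUN was analysed in HCT116 p53-/- cells, 11 libraries in 6 groups. Bowtie2 2.2.9, MACS2, SAMtools 1.12, FastQC 0.11.5 and hg38 appear in the submitters' processing notes. For peak settings and control, the entry is: not given in the sources used here. Each deposited summit list gives, per its columns, 1 base per peak and a −log10 q from the authors' peak caller, unscaled between lists. For the up and down calls, the authors' deposited lists hold other values, namely region starts and ends.

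Each CTCF list was taken as the pool of its 2 libraries. Summits were put on 1-based coordinates, counted within 10 kb of RefSeq gene spans (GRCh38.p14), and joined into sites within 100 or 500 bp. A site counted as up or down when its deletion or WT summit lay in such a region. Shares have 95% Wilson intervals, and no p-value was computed. Start sites and strands came from the promoter table. A distance from a start is given only where it held 1 entry for the gene, and other positions refer to the gene span. Counting and joining were first tested on simulated data. The members and lists were chosen with earlier results of these data known. Every member is named; positions and values are given for members with an up site, members whose lists differ at 500 bp, and the 5 strongest sites, and 12 of the other intestinal genes by deletion value. Alternatives were other windows, joining distances, minimum values, equal list lengths, removal of summits within 1 kb of IgG summits, nearest-gene assignment and a 100 bp slack on regions. The work used matplotlib 3.10.9, pandas 2.3.3, Python 3.11.15, SciPy 1.17.1 and NumPy 2.4.6.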

Additional observations from a re-analysis of the deposited data

How the results depend on the processing

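Of 72 values under alternative settings, 42 stayed within 1.5 times the main value and 30 moved further. Within the gene span alone, summits numbered 14 in WT, 21 in deletion and 13 in rescue, at 9, 13 and 9 members. Within 2 kb, rescue had 22 summits. Within 50 kb, summits numbered 93, 135 and 106 at 35, 41 and 39 members, deletion had more than WT at 25 members, and 25 up sites and 1 down site were found. With −log10 q of at least 5, rescue had 23 summits. With at least 10, the lists had 8, 22 and 13 summits at 7, 14 and 11 members. At equal list lengths, deletion had 31 summits, more than WT at 3 members, and 4 sites of its own, or 2 of 41 sites when joined within 500 bp. Joining within 50 bp left 11 sites in all 3 lists, and joining within 500 bp left 10 in deletion only. Removing summits near IgG summits, run for the counts of summits and of members with a summit, moved none of them. It could not, because no member site lay within 1 kb of an IgG summit. Assigning each summit to its nearest gene, run for summit counts and median values, moved none by over 1.5 times. No paired analysis was possible because the CTCF summits come as single lists per genotype without replicate numbers, and for that reason no replicate could be left out. Unknown depth limits all differences in number between lists.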
